A study of Mus musculus with 6 samples.

Results

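Examined here were 9 genes of YAP signalling and mechanical stretch, in myoblasts in which integrin alpha7 was to be raised. They are the pathway factors Yap1, Wwtr1 and Tead1 and the target genes Ctgf, Cyr61, Ankrd1, Axl, Amotl2 and Lats2. The members were chosen by name, and every probe set that the platform annotation gives to exactly 1 of them was taken, which gave 23 probe sets for all 9 genes, out of 45037 probe sets and 18193 genes in all. Ctgf is also written Ccn2, and Cyr61 is also written Ccn1. A further 1 probe set, annotated to both Xpo4 and Lats2, was left out by this rule. A mean signal above 22.6, the median of all probe sets, was required for a test, and 20 of the 23 member probe sets, at least 1 for each of the 9 genes, passed it.

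The cells were the integrin alpha7 inducible C2C12 line, derived from the C2C12 line of mouse skeletal myoblasts, in which tetracycline is used to switch on integrin alpha7. Integrin alpha7 pairs with integrin beta1 in the laminin receptor of muscle. Both groups were of this line and were kept undifferentiated for 36 h in DMEM with 20% serum, chick embryo extract, glutamine, penicillin, streptomycin and kanamycin. The 3 noninduced cultures had no tetracycline, and the 3 cultures labelled induced had 1 µg/ml tetracycline. One Mouse430_2 oligonucleotide array was hybridised with the RNA of each culture, the series calls the 3 samples of a condition biological, and 3 arrays a group limit the precision. All results come from this single line, and no parental C2C12 culture given tetracycline enters a comparison, so tetracycline and its induced gene cannot be told apart.

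YAP, encoded by Yap1, and TAZ, encoded by Wwtr1, are transcriptional co-activators that bind DNA through the TEAD factors. The Hippo kinases, among them LATS2, phosphorylate both proteins and keep them out of the nucleus, whereas spread cell shape, stiff matrix, integrin adhesion and stretch favour their nuclear entry. Nuclear YAP and TAZ raise transcripts such as Ctgf, Cyr61, Ankrd1 and Axl, and also Amotl2 and Lats2, whose products hold YAP back. In myoblasts YAP activity is known to promote proliferation and to oppose differentiation. The transcript levels measured here do not show where the YAP and TAZ proteins were.

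Promoter windows were in the RefSeq promoter table (build GRCm38.p6) for 7 of the 9 genes, in 9 windows, and the entries for Ctgf and Tead1 were not found. Each window runs from 250 bases before to 50 bases after a transcription start. The core TEAD motif GGAATG, searched on both strands, occurred in at least 1 window of all 7 genes, against 16.6% of the 27025 genes in the table, and in 8 of the 9 windows, against 14.7% of 32851 windows. The AP-1 motif TGANTCA was in none of the 9 windows (7.81% of all windows) and the CArG box of SRF in none (1.63%). The members were picked as pathway genes, some of their windows overlap, and a match is a description of letters rather than of binding. The 250 bases before the start are shown for 3 target genes whose signals are described below, 5′ to 3′ on the gene's strand, with the TEAD motif or its reverse complement in capitals. The Ankrd1 sequence is chr19:36119845-36120094 on the minus strand with 2 matches, that of Cyr61 is chr3:145649986-145650235 on the minus strand with 1, and that of Amotl2 is chr9:102717554-102717803 on the plus strand with 1.
Ankrd1: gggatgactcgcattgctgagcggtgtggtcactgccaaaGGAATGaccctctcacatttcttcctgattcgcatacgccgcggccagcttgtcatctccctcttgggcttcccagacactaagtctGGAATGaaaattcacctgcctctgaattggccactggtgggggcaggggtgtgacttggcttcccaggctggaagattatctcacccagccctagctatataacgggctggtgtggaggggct
Cyr61: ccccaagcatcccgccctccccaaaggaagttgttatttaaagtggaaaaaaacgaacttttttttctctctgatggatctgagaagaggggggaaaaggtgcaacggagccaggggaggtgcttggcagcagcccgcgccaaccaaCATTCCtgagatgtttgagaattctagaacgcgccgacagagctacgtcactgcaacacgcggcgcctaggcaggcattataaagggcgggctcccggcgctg
Amotl2: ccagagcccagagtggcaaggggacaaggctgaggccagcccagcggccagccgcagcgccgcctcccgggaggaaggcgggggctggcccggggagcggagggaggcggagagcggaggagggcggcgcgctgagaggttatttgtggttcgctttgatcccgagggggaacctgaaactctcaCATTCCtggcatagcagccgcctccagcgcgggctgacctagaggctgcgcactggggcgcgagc

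The scaled arrays had medians from 22.9 to 27.7, and the first principal component (29.7% of the variance) set noninduced replicate 2 apart most. On it the noninduced arrays lay at 0.15, 0.70 and 0.26. The arrays labelled induced lay at -0.31, -0.44 and -0.36, so it also split the groups. By their hybridisation times, the 4 arrays of the first fluidics run held all noninduced samples and induced replicate 1, and the second run held induced replicates 2 and 3. No label names a run, and the runs were inferred from gaps between these times. The hybridisation time recorded for induced replicate 2 is later than its scan time, so the split into runs is uncertain. All scans of the noninduced group came first, so the order of scanning and the treatment cannot be told apart. The transcript Itga7, the gene to be induced, gave 811, 778 and 786 without tetracycline and 675, 727 and 676 with it (log2 fold change -0.19, SE 0.058, limma adjusted p = 0.178). The labels do not say whether this probe set can detect the induced transcript, and the treated group is called the arrays labelled induced. Of 5 myoblast markers, Myod1, Myf5, Des and Cdh15 were well above the filter, with mean signals from 670 to 1369 in either group, and the satellite cell factor Pax7 was below it (14.0 and 4.46). Of the differentiation genes, Myog gave means of 42.8 and 32.9 and Acta1 of 159 and 192, and Ckm, Myh3, Tnnt3 and Mb were below the filter. Of 16 markers of endothelial cells, leukocytes, adipocytes and epithelium, 15 were on the array and 10 lay below the filter. The 5 above it were dim: Kdr (means of 23.0 and 27.0), Csf1r (78.4 and 63.4), Adgre1 (35.5 and 27.4), Epcam (51.8 and 40.9) and Krt14 (59.5 and 62.3).

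No member changed past the test between the groups. In such bulk RNA, fewer cells of a kind and less RNA per cell cannot be told apart. None of the 20 tested probe sets had a limma adjusted p under 0.05 over the whole table, where 0.200% of all 22518 tested probe sets did. At an unadjusted p under 0.05 there were 2 of 20, against 14.7% of all, and the groups did not overlap in 2 of 20, against 20.3% of all. The log2 fold change, taken as induced minus noninduced on the log2(signal + 16) scale, was positive for 9 and negative for 11, with a median of -0.0028 against -0.01 over all tested probe sets. The median size of the change was 0.09, against 0.11 over all. The 95% interval of the fold lay within 1.25-fold in either direction for 12 of the 20 and within 1.5-fold for 17, so changes beyond these sizes were outside the intervals for those probe sets. In limma each variance is drawn toward that of probe sets of similar signal. For Ctgf and the Cyr61 probe sets, which varied widely between replicates, the intervals are therefore narrower than their own spread alone would give. Larger changes of these genes are less firmly bounded than the counts imply.

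**Figure D1:**
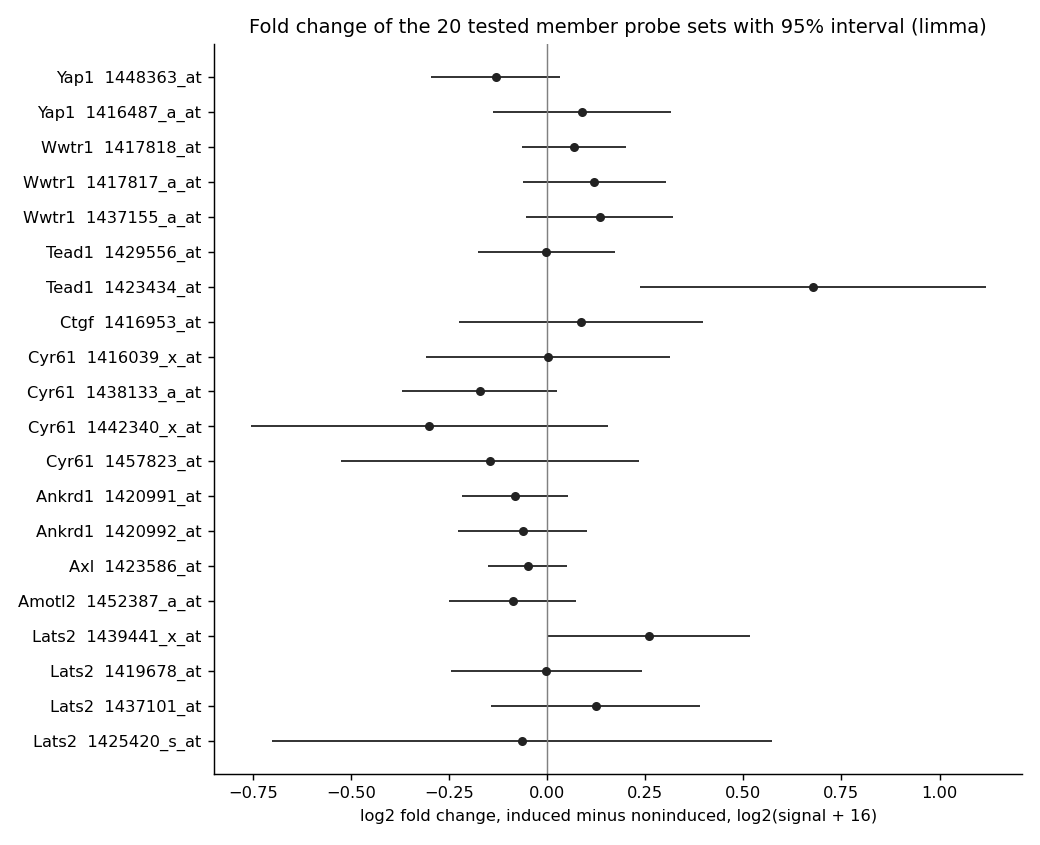
Log2 fold change (x axis, induced minus noninduced) of the 20 tested member probe sets with the 95% interval from limma, ordered by role from co-activators to feedback genes. Intervals include 0 for all but the dim Tead1 probe set 1423434_at and, barely, Lats2 1439441_x_at, and neither passed the adjusted threshold.

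Yap1, the co-activator itself, was measured by 2 probe sets whose differences had opposite signs. The brighter one, 1448363_at, gave 610, 735 and 610 without tetracycline and 599, 592 and 583 with it. The 3 values with tetracycline were the lowest of the 6, but the gap was small and noninduced replicate 2 stood above the rest. The fold was 0.913 (95% interval 0.814 to 1.02; log2 -0.13, SE 0.076, limma adjusted p = 0.450), and without noninduced replicate 2 the log2 fold change was -0.04. The other probe set, 1416487_a_at, gave 128, 157 and 160 against 162, 158 and 155, and its groups overlapped (log2 0.09, adjusted p = 0.738 in limma). The within-array log2 ratio of the brighter to the dimmer probe set was 2.02 ± 0.164 without tetracycline and 1.80 ± 0.0092 with it (SD, n = 3 each; exact two-sided permutation p = 0.1, the smallest that 3 against 3 allow).

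Wwtr1, which encodes TAZ, had 3 probe sets, all with positive values and overlapping groups. The brightest, 1417818_at, gave 656, 700 and 688 without tetracycline and 684, 711 and 750 with it. Its fold was 1.05 (95% interval 0.956 to 1.15; limma adjusted p = 0.649). Probe set 1417817_a_at gave 241, 280 and 249 against 294, 279 and 267 (log2 0.12), and 1437155_a_at gave 236, 213 and 215 against 241, 262 and 230 (log2 0.13). Neither passed, with limma adjusted p of 0.536 and 0.502, and the upper bounds of their intervals were 1.23-fold and 1.25-fold. With equalised medians the log2 values of the 3 probe sets, in this order, were 0.16, 0.21 and 0.23. The median of all tested probe sets was then 0.08, so the bounds hold for the main scaling only.

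Tead1, the DNA-binding partner, showed the largest fold among the members, and only in its dim probe set. That probe set, 1423434_at, gave 32.9, 16.5 and 28.3 without tetracycline and 50.2, 59.5 and 41.4 with it. Every array labelled induced was above every noninduced array, which held for 9.64% of all tested probe sets. The difference was 0.68 on the log2 scale (SE 0.202, interval from 0.24 up to 1.12; limma adjusted p = 0.165), and also 0.68 for induced replicate 1 against the noninduced arrays of its own fluidics run. It was 0.97 with a pseudocount of 1 and 0.35 with 64. With equalised medians it was 0.77 (limma adjusted p = 0.0759). The signal lay close to the filter at 22.6. The brighter Tead1 probe set, 1429556_at, gave 497, 607 and 513 against 564, 517 and 528, with overlapping groups. Its fold was 0.998 (95% interval 0.884 to 1.13, limma adjusted p = 0.993). With equalised medians its log2 value was 0.09, against a median of 0.08 over all tested probe sets. The within-array log2 ratio of the dim to the brighter probe set differed by 0.68 between the groups (exact two-sided permutation p = 0.1).

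Ctgf, a secreted matricellular protein and a widely used YAP readout, had 1 probe set, 1416953_at. It gave 262, 297 and 397 without tetracycline and 331, 399 and 283 with it. The groups overlapped fully: the highest noninduced and the highest induced array were nearly equal, and each group held low arrays. The means were 319 ± 69.9 and 337 ± 58.2 (SD, n = 3 each), a fold of 1.06 (95% interval 0.855 to 1.32; limma adjusted p = 0.825). The spread within a group, 1.51-fold between the highest and the lowest noninduced array, was larger than the difference between the groups.

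Cyr61, a second matricellular protein of the same CCN family, had 4 tested probe sets, which fell into pairs. The brightest, 1416039_x_at, gave 1063, 897 and 1541 without tetracycline and 1145, 1198 and 1077 with it. Noninduced replicate 3 stood far above the others, and the arrays labelled induced lay inside the noninduced range (fold 1.00, 95% interval 0.808 to 1.24; limma adjusted p = 0.998). Without that array the log2 fold change was 0.22. Probe set 1438133_a_at gave 848, 882 and 1020 against 770, 933 and 738, with a fold of 0.887 (95% interval 0.774 to 1.02; limma adjusted p = 0.405) and overlapping groups.

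The other pair of Cyr61 probe sets, designed from the same expressed sequence tag per the platform annotation, differed from the first in the place of noninduced replicate 3. Probe set 1442340_x_at gave 245, 281 and 131 without tetracycline and 188, 176 and 140 with it. Probe set 1457823_at gave 224, 244 and 135 against 199, 176 and 153. On both, noninduced replicate 3 was the lowest of all 6 arrays, whereas it was the highest of all 6 on 1416039_x_at and 1438133_a_at. The log2 fold changes were -0.30 and -0.15 (limma adjusted p = 0.535 and 0.746), and without noninduced replicate 3 they were -0.61 and -0.39. The within-array log2 ratio of 1416039_x_at to 1457823_at ranged from 1.81 to 3.37 on the noninduced arrays and from 2.43 to 2.69 on the others. Between the groups, the exact two-sided permutation p of this ratio was 0.9. For the ratio of 1416039_x_at to 1438133_a_at it was 0.5. An x in a probe set name marks probes that can also bind other transcripts, so the signal of 1416039_x_at and 1442340_x_at is uncertain to that extent. Each pair also holds a probe set without the x, and why the pairs differ was not tested.

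Ankrd1, a stretch-responsive ankyrin repeat protein of the muscle nucleus and sarcomere, was measured by 2 bright probe sets. Probe set 1420991_at gave 4630, 5218 and 5542 without tetracycline and 4787, 5083 and 4637 with it. Its groups overlapped, with means of 5130 ± 463 and 4836 ± 227 (SD, n = 3 each) and a fold of 0.945 (95% interval 0.860 to 1.04; limma adjusted p = 0.577). Probe set 1420992_at gave 4026, 4461 and 4785 against 3987, 4770 and 3964, a fold of 0.957 (95% interval 0.854 to 1.07; limma adjusted p = 0.747). Both log2 fold changes, -0.08 and -0.06, were positive once medians were equalised over the arrays, at 0.01 and 0.03. These lay below the median of 0.08 over all tested probe sets in that setting.

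Axl, a receptor tyrosine kinase, had the narrowest interval among the members. Its probe set 1423586_at gave 1975, 2053 and 2053 without tetracycline and 1915, 2016 and 1946 with it, with overlapping groups. The fold was 0.966 (95% interval 0.901 to 1.04, limma adjusted p = 0.665). With equalised medians the log2 value of -0.05 became 0.04, against 0.08 for the median of all tested probe sets. A second Axl probe set, 1438621_x_at, stayed below the filter with signals from 11.6 to 21.4 and was not tested.

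The feedback genes of the pathway, Amotl2 and Lats2, gave no call either. Amotl2, an angiomotin-like scaffold that binds YAP, gave 1022, 1275 and 1139 without tetracycline and 1033, 1126 and 1059 with it on its single probe set. The groups overlapped and the fold was 0.940 (95% interval 0.840 to 1.05, limma adjusted p = 0.626). With equalised medians the log2 value of -0.09 became 0.0048, against 0.08 for the median of all tested probe sets. Lats2, the kinase that phosphorylates YAP, had 6 probe sets. The brightest, 1439441_x_at, gave 272, 261 and 263 against 369, 354 and 253: noninduced arrays were tightly grouped, induced replicates 1 and 2 lay above them and induced replicate 3 lay below all of them. Its log2 fold change was 0.26 (SE 0.119, limma adjusted p = 0.339), and without induced replicate 3 it was 0.42 with an adjusted p of 0.0632, the smallest of any member in any alternative. Without induced replicate 1 or 2 it was 0.16 or 0.19, with adjusted p of 0.640 and 0.620. The x in its name marks probes that can also bind other transcripts. Probe set 1437101_at placed the arrays labelled induced likewise, with 142, 122 and 128 against 164, 152 and 119. The other tested Lats2 probe sets, 1419678_at, 1437101_at and 1425420_s_at, were at -0.0029, 0.12 and -0.06 on the log2 scale, with overlapping groups. With equalised medians they were at 0.09, 0.22 and 0.03, and 1439441_x_at at 0.35, against the same 0.08 over all tested probe sets. Probe set 1425420_s_at was dim, from 12.4 to 50.7. The remaining pair, 1419679_at and 1426156_at, lay below the filter, with signals from 13.8 to 29.2 and from 2.77 to 11.4.

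**Figure D2:**
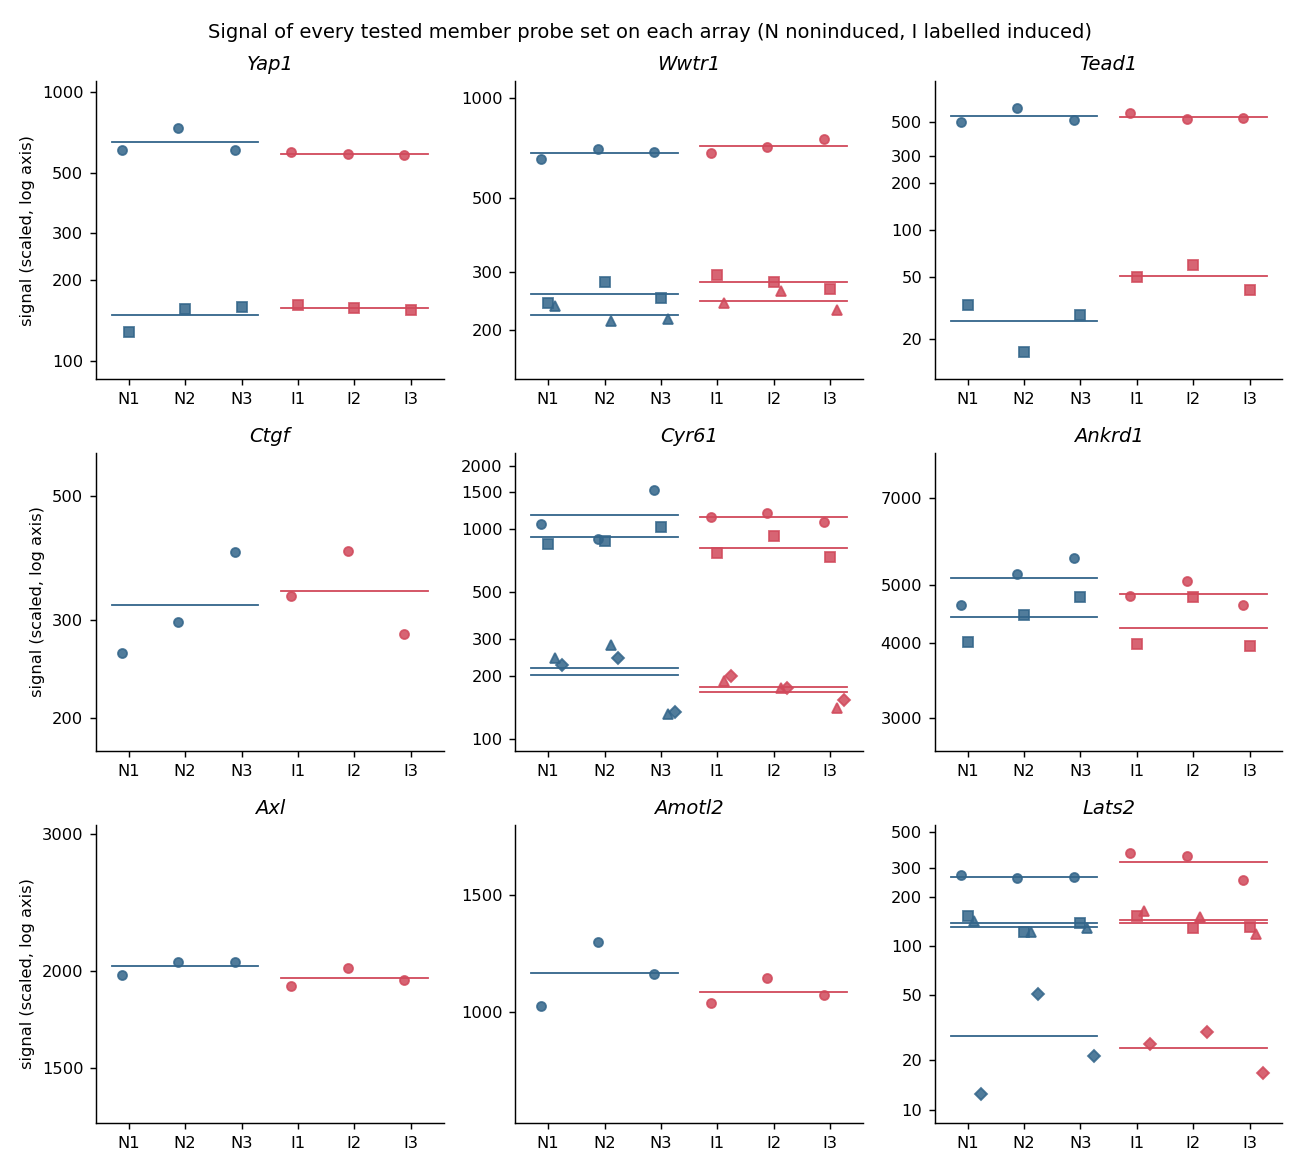
Signal (y axis, scaled, log axis) of every tested probe set of the 9 genes on the 3 noninduced (N1 to N3, blue) and 3 arrays labelled induced (I1 to I3, red); each marker shape is 1 probe set and each line a group mean. Levels of different probe sets are not comparable with each other, and the groups overlap in all but Yap1 1448363_at and Tead1 1423434_at.

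The spread between replicates set several members apart from most probe sets of similar signal. The residual SD, the within-group spread of log2(signal + 16), was ranked for each probe set within its decile of tested probe sets by signal. Ctgf, with 0.266, lay at the 98.8th percentile. Cyr61 lay at 99.5, 99.4, 98.3 and 93.0 for 1416039_x_at, 1442340_x_at, 1457823_at and 1438133_a_at. Ankrd1 lay at 93.6 and 84.9 and Amotl2 at 90.4, whereas Axl lay at 14.9 and the 3 Wwtr1 probe sets from 26.1 to 36.6. In all, 9 of the 20 were above the 90th percentile, where 10% of all tested probe sets lie by definition. This rank was taken after the values had been seen, and noninduced replicate 3 carried part of it: without that array Ctgf was at 95.2 and the Cyr61 probe sets, in the order above, at 87.3, 80.3, 65.9 and 89.5. Lats2 1439441_x_at, at 93.5 with all arrays, was at 3.51 without induced replicate 3, and Cyr61 1438133_a_at was at 78.3 without induced replicate 2. Amotl2 was at 73.4 without noninduced replicate 1 and at 74.3 without noninduced replicate 2. Without the latter array Lats2 1425420_s_at, at 90.4 with all arrays, was at 52.5.

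**Figure D3:**
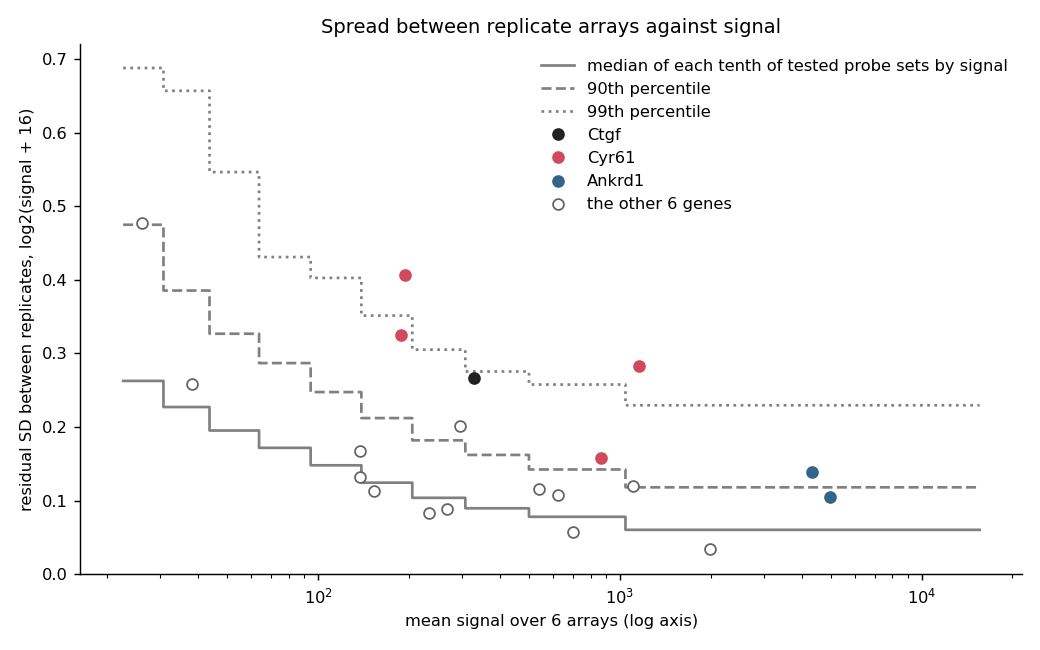
Residual SD between replicate arrays (y axis, log2(signal + 16)) against mean signal (x axis, log axis) of the 20 tested member probe sets; grey steps give the median, 90th and 99th percentile of all tested probe sets in each decile of signal. Ctgf and 3 of the 4 Cyr61 probe sets sit near or above the 99th percentile line, and Ankrd1 near the 90th.

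Ctgf, the 2 brighter Cyr61 probe sets and both Ankrd1 probe sets shared the highest array of each group. They also shared the lowest array labelled induced, replicate 3, though not the lowest noninduced array. In all 5, noninduced replicate 3 was the highest of its group and induced replicate 2 the highest of its group, and Axl shared this by very small margins. The pattern held in 6 of the 20 member probe sets and in 10.8% of all tested ones. Among other genes it held in 9 of the 19 SRF and MRTF target genes, against 10.7% of the 10757 tested genes, each by its brightest probe set. These were Actg2, Tagln, Cnn1, Cnn2, Tpm2, Fhl1, Zyx, Flna and Mrtfa, most of them genes of the actin cytoskeleton. Tagln, for example, gave 1253, 1398 and 1539 without tetracycline and 1598, 1747 and 1700 with it. The pattern held in 3 of 16 other YAP and TEAD targets (Thbs1, Tgfb2 and Ajuba), 3 of 23 Hippo kinases and scaffolds, 1 of 5 TEAD and Vgll genes, 1 of 9 stretch genes and 0 of 4 myoblast markers. It was chosen after the values had been seen and carries no test.

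**Figure D4:**
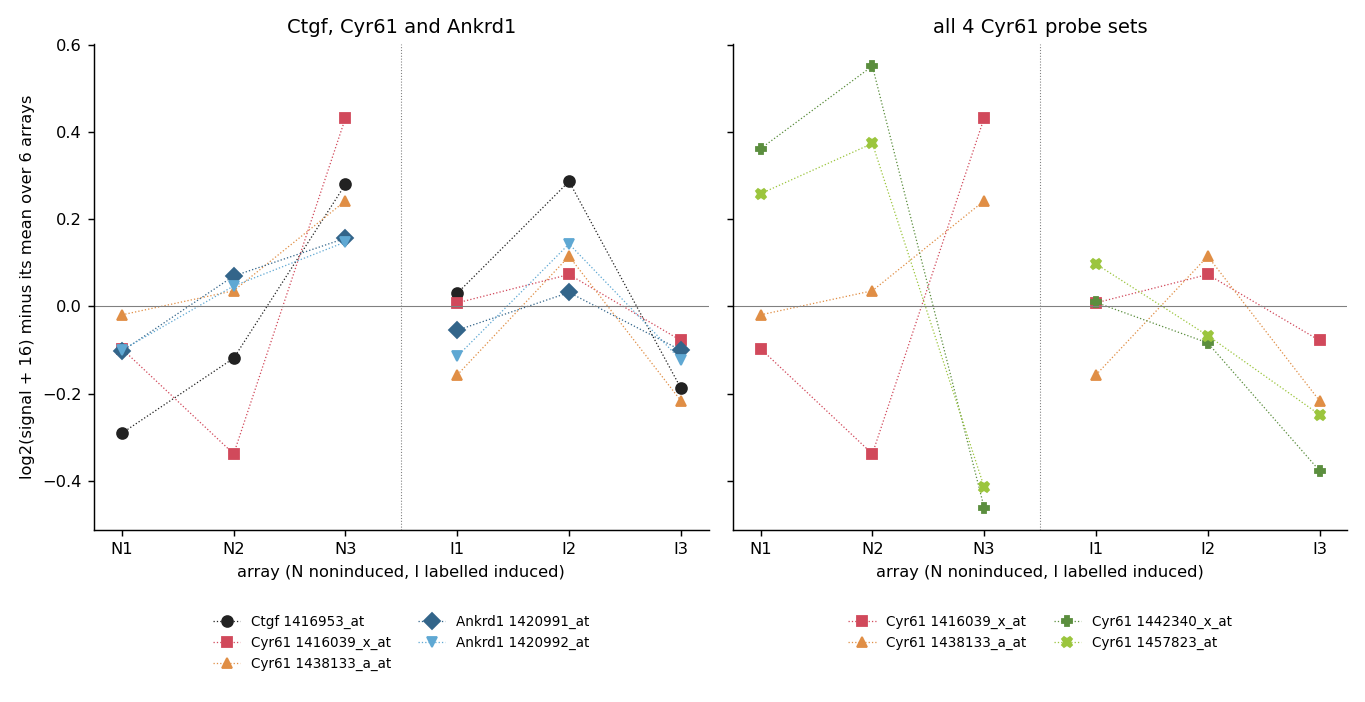
Log2(signal + 16) minus its mean over the 6 arrays (y axis) for Ctgf, the 2 brighter Cyr61 and both Ankrd1 probe sets (left) and for all 4 Cyr61 probe sets (right); dotted lines join values of 1 probe set within a group and imply no order of replicates. On the left all 5 peak at N3 and I2 of their group; on the right 1442340_x_at and 1457823_at are lowest at N3.

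The genes with the most similar profiles over the 6 arrays, by the root mean square difference of centred log2 values among 19805 probe sets of other genes, were all of lower signal. For Ctgf they were Ddias, Zfp60 and Mettl14, with differences of 0.0574, 0.0672 and 0.0711 against a median of 0.258 over all. For Cyr61 1416039_x_at they were Gins1, Zfp358 and Ddx55 (0.0560, 0.0647 and 0.0669, median 0.267). For Ankrd1 1420991_at they were Fem1c, Stag1 and Utp6 (0.0172, 0.0223 and 0.0226, median 0.163). Gins1 and Ddx55 lay close to the filter, with signals from 19.9 to 39.8 and from 16.7 to 37.8. All these genes were picked as the closest of many profiles, so small differences follow from the choice.

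Other genes of the pathway gave no call either, and each gene is represented by its brightest probe set. None of 23 Hippo kinases and scaffolds passed limma's adjusted threshold. At an unadjusted p under 0.05, 6 were higher and 1 lower, a share to be read against 15.9% of all tested genes, and the median log2 fold change was 0.02 against -0.0088 over all tested genes. Stk4 (0.14), the MST1 kinase, Sav1 (0.18), its scaffold, Taok3 (0.33), a kinase that activates MST, and Amot (0.25), the angiomotin scaffold, were among the 6, while the LIM protein Ajuba, which is also in the list of targets, was at -0.19. Other tested probe sets ran from -0.22 to -0.19 for Amot, from -0.17 to 0.0015 for Stk4 and from 0.01 to 0.46 for Taok3. Fat4, a protocadherin, was at 0.42 and dim, and the brightest members, Map4k4 and Fat1, were at -0.08 and 0.02. Other tested probe sets of Map4k4 ran from -0.30 to 0.14. Of the 5 tested TEAD and Vgll genes, none passed, and the median was -0.11. At an unadjusted p under 0.05 in limma, 1 was higher and 1 lower, to be read against the same 15.9%. Vgll3, a TEAD cofactor of muscle, was at 0.28 (0.04 to 0.13 on its other probe sets), Vgll4, which competes with YAP for TEAD, at -0.37 and Tead2 at -0.03, and Tead4 stayed below the filter.

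Among the other YAP and TEAD target genes, 3 came near to the threshold. Of 16 tested, none passed the adjusted threshold in limma, and the median was 0.06. At an unadjusted p under 0.05, 3 were higher and 2 lower, against 15.9% of all tested genes in either direction. Gadd45a, a growth arrest gene that p53 and ATF4 also induce, gave 70.4 ± 16.8 without tetracycline and 141 ± 21.9 with it (log2 0.87, adjusted p = 0.0537). F3, which encodes tissue factor, gave 239 ± 25.1 and 337 ± 8.88 (log2 0.48, adjusted p = 0.0537). Thbs1, thrombospondin, was at -0.40, with 3481 ± 405 and 2627 ± 212 (adjusted p = 0.0676; SD, n = 3 for each of these groups). The groups did not overlap in these 3 genes, as in 20.3% of all tested probe sets, their differences had both signs, and Birc5, the brightest after Thbs1, was at 0.02.

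Genes of actin-dependent SRF and MRTF transcription and of muscle stretch gave the same count of calls, 0 of 19 and 0 of 9 in limma. In the first list 3 of 19 were higher and none lower at an unadjusted p under 0.05, close to the 15.9% of all tested genes in either direction (median 0.04). Actg2, a smooth muscle actin, was at 0.33 and Tagln, the actin-binding transgelin, at 0.27. The brightest, Acta2 and Tpm1, were at 0.06 and -0.09, and their other tested probe sets ran from 0.21 to 0.44 and from -0.11 to -0.07. In the second list, read against the same share, 3 of 9 were higher and 2 lower (median -0.04), with Fos at -0.58 (adjusted p = 0.146) and Egr1 at -0.54, both immediate early factors, and Mt1, a metallothionein, at 0.36 and Cryab, a small heat shock protein, at 0.17 (-0.0087 on its other probe set). Egr1 gave 638 ± 24.7 without tetracycline and 436 ± 72.4 with it (SD, n = 3 each), with no overlap, and its limma adjusted p of 0.0515 was the smallest of any list gene. After the arrays were put on equal medians the list medians ran from -0.02 to 0.15, against 0.08 over all tested genes. That of the stretch list was 0.05. Ankrd2, Ankrd23, Csrp3, Xirp1 and Igf1 lay below the filter.

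**Figure D5:**
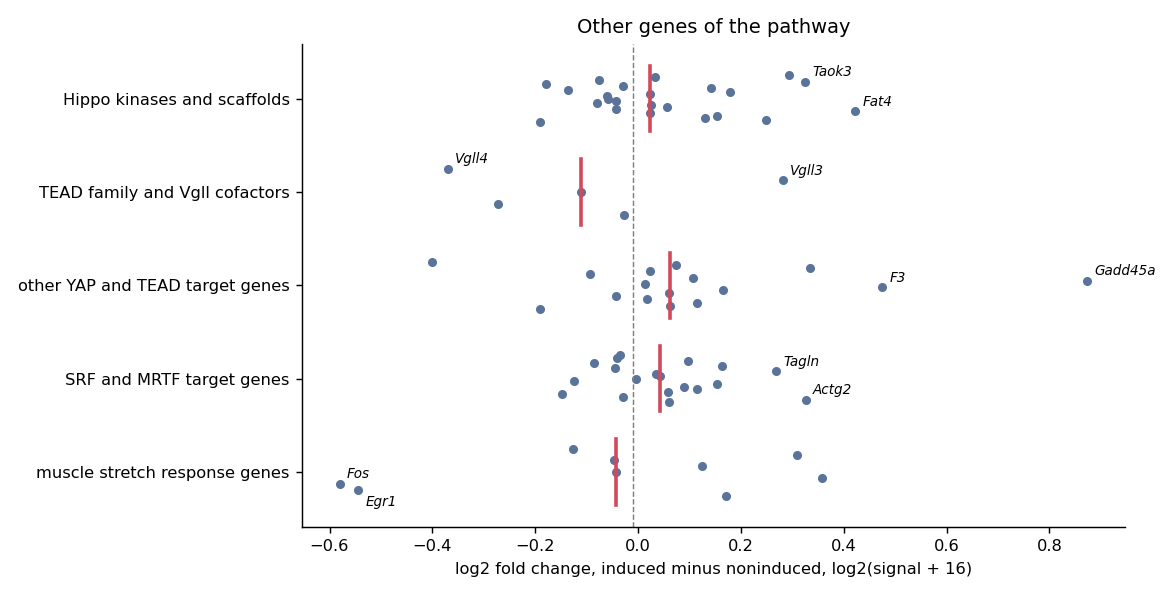
Log2 fold change (x axis, induced minus noninduced) of each tested gene, by its brightest probe set, in the 5 pathway lists; red bars are list medians and the dashed line is the median of all tested genes at -0.0088. No gene passed the adjusted threshold, and the list medians lie between -0.11 and 0.06.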

How the data were processed

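Total RNA of the 6 samples was labelled with biotin and hybridised to 1 array each, per the labels' protocols. From each array the authors deposited 1 unlogged intensity for a probe set. The submitters' processing notes name GCOS 1.1.1, with settings not given in the sources used here. All 6 arrays share a mean of 150.001 once the outer 2% of values on either side are dropped, so each value is relative to its whole array. The deposited instrument records gave the order of scanning. Fluidics runs were inferred from gaps between their hybridisation times. Groups follow the titles, and 64 control probe sets were set aside.

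Values were taken to log2(value + 16). This makes the folds of dim probe sets too small. The 22518 probe sets whose mean on this scale lay above the median were fitted together with limma 3.58.1 in R 4.3.3 (variance trend, Benjamini-Hochberg adjustment, threshold 0.05). The scale of the filter's mean was settled after the data were seen, with the linear mean as an added alternative. Single ratios had exact two-sided permutation tests. They were taken for pairs of Cyr61, Tead1 and Yap1 probe sets only, not for every gene with several. The Tead1 and Yap1 pairs each hold a probe set whose groups did not overlap, so their ratios are no separate evidence. Correlations of deviations between same-numbered arrays were 0.01, -0.06 and -0.0053 for numbers 1, 2 and 3. Those between differently numbered arrays ran from -0.045 to 0.048. No pairing by number was seen, though a weak one would not show here, and the arrays were treated as unpaired.

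The members and lists were chosen with earlier results of these data known. Named are all members, Itga7, and from each pathway list the genes past the threshold, the 2 with the largest change and the 2 brightest; Stk4, Sav1, Amot, Ajuba, Tead4, the cell type markers, the genes sharing the array order and the genes below the filter were named after their values were seen. Of the genes listed, Stk3, Areg and Plin1 had no probe set of their own in the annotation. The fit was tested on simulated data. Alternatives were quantile normalization, median centring, other filters, pseudocounts of 1 and 64, no trend, robust moderation, array weights, replicate or fluidics run as a block, the first run alone, a threshold of 0.10, averaging a gene's probe sets, and leaving out each array.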

Additional observations from a re-analysis of the deposited data

How the results depend on the processing

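No member probe set passed the adjusted threshold in limma under any of the 20 alternatives. Of 379 recomputed member log2 fold changes, 344 kept their sign and 35 changed it, 17 of these on leaving out 1 array, and none of the 35 was past the threshold. After median centring the values were 0.091 for Tead1 1429556_at, 0.011 and 0.031 for Ankrd1, 0.044 for Axl, 0.0048 for Amotl2, 0.090 for Lats2 1419678_at and 0.029 for Lats2 1425420_s_at. This centring moved the median of all tested probe sets from -0.01 to 0.08. Of the member probe sets that kept their sign, Tead1 1423434_at was at 0.77 and Lats2 1439441_x_at and 1437101_at at 0.35 and 0.22. The Wwtr1 probe sets were at 0.16, 0.21 and 0.23, Ctgf and Yap1 1416487_a_at at 0.18, and Yap1 1448363_at at -0.04. For Cyr61, 1416039_x_at, 1438133_a_at, 1442340_x_at and 1457823_at were at 0.10, -0.08, -0.21 and -0.05. Quantile normalization gave -0.011 for Cyr61 1416039_x_at and 0.020 for Lats2 1425420_s_at, and array weights gave -0.048 and 0.020 for these and 0.018 for Tead1 1429556_at. With a block for the fluidics run or in the first run alone, where induced replicate 1 is the single treated array, they were 0.068 for Tead1 1429556_at, 0.025 for Cyr61 1457823_at and 0.14 for Lats2 1419678_at. Leaving out 1 array gave -0.0013 to 0.14 for Yap1 1416487_a_at, -0.057 to 0.084 for Tead1 1429556_at, -0.037 to 0.25 for Ctgf, -0.17 to 0.22 and -0.39 to 0.0054 for Cyr61 1416039_x_at and 1457823_at, and -0.078 to 0.063 and -0.34 to 0.28 for Lats2 1419678_at and 1425420_s_at.

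The 45 calls over all probe sets became 306 after median centring, 1 with no filter, 103 with the filter at the 75th percentile, 73 with a pseudocount of 64, 76 with robust moderation, 88 with array weights and 239 at a threshold of 0.10. They became 0 without a variance trend (2818 at an unadjusted p under 0.05 in limma), 0 with a block for the fluidics run (1918) and 0 in the first run alone (1978). With the replicate block there were 7, and no pairing of the arrays by number was seen. Leaving out 1 array gave 1 to 58: it was 1 when noninduced replicate 2 was dropped and 9 when noninduced replicate 3 was. Dropping induced replicate 1 gave 2, and dropping induced replicate 2 gave 11. The cause was not tested. Of 85 recomputed list medians 12 moved by more than the spread between arrays. Averaging all tested probe sets of a gene moved 4 of the 19 named list genes compared by more than 1 SD. The ranks of the residual SD without 1 array and the filter on the linear mean were added after seeing the data; with that filter there were again 45 calls and 20 tested member probe sets. With 3 arrays a group, the intervals of the dim Tead1 and Lats2 probe sets and of Cyr61 1442340_x_at reach beyond 1.5-fold.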
